A study of Homo sapiens with 6 samples.

Results

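The 10 genes described here are the 5 subunits of the small nuclear RNA activating protein complex (SNAPc), SNAPC1 to SNAPC5, and 5 genes of small noncoding RNAs, RNU4ATAC, RNU6ATAC, RNU11, RNU12 and RMRP. They were taken by symbol from the 27734 gene rows of the tables. The set was chosen by the measured level of SNAPC1, which was much higher in drug-resistant than in control cells, so the members' differences between these groups are given as descriptions without a test. All 10 had a row of their own, and all 10 were among the 13070 genes that averaged at least 1 FPKM (fragments scaled by the length of the RNA and the total of the library, a level per length) over the 6 libraries. All 10 also averaged at least 1 FPKM in each group, so that none passed through its higher group alone.

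The cells were PC-3, an established human prostate cancer line. Resistant cells (GDC_R) were kept continuously in GDC-0068, a drug also called ipatasertib that competes with ATP on the AKT kinases, and control cells were grown alongside with the vehicle DMSO. Each group had 3 libraries from total RNA of cells at passages 20 to 30, and the comparison asks how RNA levels differ in the resistant line. The labels give neither the dose nor the presence of drug at harvest, nor whether replicates were separate cultures or lines, so p-values here measure only the spread between libraries, which may be technical.

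SNAPc binds the proximal sequence element in the promoters of small nuclear RNA (snRNA) genes, and is unusual in serving RNA polymerase II and RNA polymerase III alike. RNA polymerase II makes U11, U12 and U4atac, while RNA polymerase III makes U6atac and the RNA of RNase MRP from promoters of the same general kind. U11, U12, U4atac and U6atac are RNAs of the minor spliceosome, which removes the rare U12-type introns: U11 recognises the 5′ splice site, U12 the branch site, and U4atac pairs with U6atac, the RNA of the catalytic core, until activation. RMRP is the RNA of RNase MRP, which cleaves the precursor of ribosomal RNA.

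The sequences of the 4 snRNAs are shown because their levels are compared below. They are those of GENCODE 29 on GRCh38, 5′ to 3′ in the letters of the gene, and capitals mark AATTTTT, searched on the RNA strand only, which holds the core of the site on which the ring of Sm proteins assembles.
RNU4ATAC: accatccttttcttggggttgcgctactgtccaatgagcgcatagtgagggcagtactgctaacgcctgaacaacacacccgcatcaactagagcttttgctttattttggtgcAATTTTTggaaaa
RNU6ATAC: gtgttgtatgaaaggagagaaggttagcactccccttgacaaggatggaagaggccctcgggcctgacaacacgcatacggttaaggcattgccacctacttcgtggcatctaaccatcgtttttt
RNU11: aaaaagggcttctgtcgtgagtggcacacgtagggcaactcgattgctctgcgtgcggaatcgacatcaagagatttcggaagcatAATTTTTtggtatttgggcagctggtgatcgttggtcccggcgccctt
RNU12: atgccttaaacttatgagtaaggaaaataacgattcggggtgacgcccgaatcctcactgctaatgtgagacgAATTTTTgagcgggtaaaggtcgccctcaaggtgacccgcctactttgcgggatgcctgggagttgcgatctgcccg
The 3 RNAs made by RNA polymerase II each hold the motif once, at positions 115 to 121 of RNU4ATAC, 87 to 93 of RNU11 and 74 to 80 of RNU12, counted from 1 at the 5′ end. RNU6ATAC has no match and ends in a run of 6 T, the kind of ending at which RNA polymerase III stops. The same 7 letters occur in 324 of 10995 GENCODE transcripts of 100 to 300 bases (2.95%) and in 128 of 1900 transcripts annotated as snRNA (6.74%). In the deposited tables these models are 130 (RNU4ATAC), 125 (RNU6ATAC), 135 (RNU11) and 149 bases (RNU12), against 127, 126, 134 and 150 bases in GENCODE. GENCODE lists 17 further genes named as RNU4ATAC pseudogenes, 41 for RNU6ATAC, 5 for RNU11, 1 for RNU12 and 1 for RMRP, and reads from such copies cannot be told apart from the parent's in the tables.

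The gene counts summed to between 35562400 and 44279078 fragments per library. These sums were 5.56% to 5.84% above the library totals implied by the submitters' own scaling, so some fragments may be counted in more than 1 row, which was not tested. Control replicate 1 stood apart: its deviation from its group's mean ran with the GC content of the transcripts (Spearman rho = -0.751 over 12503 genes, a description across genes). Control replicates 2 and 3 had 0.594 and 0.638. Deviations from a shared mean sum to 0, so these values depend on that of replicate 1. Resistant replicates 1 to 3 had -0.001, 0.202 and -0.201. Beside each member, and each other named result that removal of control replicate 1 moved by over 1.5 times, the value without it is given. Keratin genes and EPCAM marked the cells as epithelial. KRT18 had 420 to 441 FPKM in resistant and 375 to 415 FPKM in control libraries. KLK3, which encodes prostate-specific antigen and which PC-3 is known to lack, had 0 fragments in all 6 libraries. All 9 markers looked at for PC-3 summed to 1248 to 1317 FPKM in resistant and 1303 to 1477 FPKM in control libraries. Of the 6 that passed the level filter, edgeR called 1 higher and 2 lower at an adjusted p under 0.05. In each resistant library 2 of the 9 were at 0, against 1 in each control library. Of 12 markers of blood, vessel and stromal cells, 2 were at 0 in each resistant library and 2 or 3 in the controls. Their summed level was 38.8 to 40.4 FPKM in resistant and 19.8 to 21.3 FPKM in control libraries, most of it the lysosomal gene CD68, and its part in the results below was not tested. In bulk RNA, fewer cells with an RNA and less of it per cell cannot be told apart.

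SNAPC1 was by far the most changed subunit. It encodes a core subunit that joins SNAPC3 and SNAPC4 in the part of the complex that contacts DNA (chr14:62229075-62263146 in hg19, plus strand, a model of 2656 bases). It had 23949, 26896 and 25056 fragments in resistant replicates 1 to 3, against 6865, 5140 and 4625 fragments in control replicates 1 to 3. Per length its level was 268, 242 and 245 FPKM in the resistant libraries, against 67.3, 49.9 and 49.5 FPKM in the control libraries. The groups were far apart, and control replicate 1 was the highest control. SNAPC1 averaged 252 ± 14.2 FPKM in resistant cells and 55.6 ± 10.2 FPKM in control cells (SD, n = 3 each), and its log2 fold change was 2.16 ± 0.12 (SE), or 4.46-fold. Without control replicate 1 it was 2.33. This was the difference that chose the set, ranking 33 from the top of the 13070 tested genes. Among the 1723 genes averaging at least 50 FPKM, 1 had a larger log2 fold change, THBS1, the secreted matrix protein thrombospondin-1, which is named after its values were seen: it had 783 ± 6.88 FPKM in resistant cells, against 166 ± 4.76 FPKM in control cells (log2 fold change 2.22 ± 0.04).

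**Figure D1:**
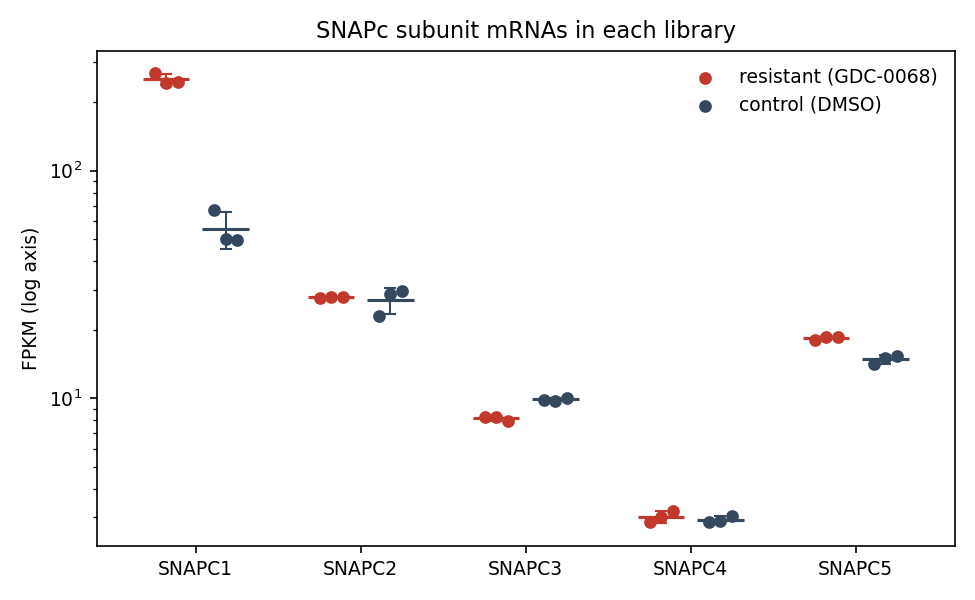
FPKM (log axis) of the 5 SNAPc subunit mRNAs, with resistant libraries left of control libraries for each gene; points are libraries, and the bar marks the mean with its SD. SNAPC1 sits at 242 to 268 FPKM in resistant cells and 49.5 to 67.3 FPKM in control cells, while the largest difference among the other 4 subunits is 0.29 on the log2 scale.

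The other subunits of the core were near their control levels or slightly below. SNAPC4, the largest subunit, whose Myb-like repeats bind DNA (chr9:139270021-139292889, minus strand), had 2.85, 3.0 and 3.20 FPKM in the resistant libraries, against 2.86, 2.87 and 3.05 FPKM in the control libraries. The groups overlapped (log2 fold change 0.03 ± 0.07, and 0.02 without control replicate 1). SNAPC3, the other core subunit (chr9:15422782-15461627, plus strand), had 8.29, 8.28 and 7.91 FPKM in the resistant libraries, against 9.87, 9.75 and 10.00 FPKM in the control libraries. Here each resistant library lay below each control library, by a small amount: 8.16 ± 0.218 FPKM in resistant and 9.87 ± 0.123 FPKM in control cells (SD, n = 3 each), and its log2 fold change was -0.29 ± 0.06, and -0.29 without control replicate 1.

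The smaller accessory subunits differed little. SNAPC2, which is not needed for a minimal active complex in vitro (chr19:7985194-7988136, plus strand), had 27.5, 27.7 and 27.9 FPKM in resistant libraries, against 22.9, 28.7 and 29.5 FPKM in control libraries. Only control replicate 1 was low, and the log2 fold change was 0.02 ± 0.09, or -0.08 without that library. The SNAPC2 transcript has a GC content of 64.4%, against a median of 48.3% over the tested genes. Other members also lay away from this median, among them SNAPC1 (37.7%), SNAPC4 (63.1%) and RMRP (63.1%). The part of GC content in the members' values was not tested. SNAPC5, the smallest subunit (chr15:66782086-66790153, minus strand), had 18.1, 18.5 and 18.6 FPKM in resistant libraries, against 14.1, 15.0 and 15.4 FPKM in control libraries. Each resistant library lay above each control library (18.4 ± 0.281 FPKM in resistant and 14.8 ± 0.666 FPKM in control cells, SD, n = 3 each; log2 fold change 0.29 ± 0.05, and 0.26 without control replicate 1). Its span from start to end overlaps that of MAP2K1, on the other strand, by 1797 bases. As the strand setting of the counting is not given, reads of the overlap may be shared. MAP2K1, the MEK1 kinase, had 35.9 to 36.3 FPKM in resistant and 33.7 to 34.9 FPKM in control libraries.

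Per length, the order of the subunits was the same in both groups: SNAPC1, SNAPC2, SNAPC5, SNAPC3 and then SNAPC4, and in neither group did neighbours in this order overlap between libraries. What differed was the distance from the first to the rest. SNAPC1 made up 82.5%, 80.8% and 81.0% of the summed FPKM of the 5 subunits in resistant libraries, against 57.5%, 47.0% and 46.1% in control libraries. The summed level of the other 4 was 57.3 ± 0.480 FPKM in resistant and 54.6 ± 4.33 FPKM in control cells (SD, n = 3 each), with overlapping libraries. SNAPC1 was thus 83.7 ± 9.13 times as abundant as SNAPC4 in resistant cells and 19.0 ± 3.92 times in control cells, and 30.8 ± 1.57 times as abundant as SNAPC3 in resistant cells against 5.63 ± 1.03 times in control cells. These are levels of mRNA, and no protein was measured.

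Of the small RNAs, all 5 averaged lower in resistant cells, and 2 of them were lower in every resistant library than in any control library. Over all 10 members, 2 were higher without overlap between the groups (SNAPC1 and SNAPC5), 3 were lower without overlap (SNAPC3, RNU6ATAC and RMRP) and 5 overlapped. Of the 13070 tested genes, 60.5% did not overlap between the groups, 31.9% being higher and 28.5% lower in resistant cells.

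RNU6ATAC showed the largest difference of the small RNAs. It lies on chromosome 9 (chr9:137029562-137029686, minus strand) and had 265, 276 and 225 fragments in resistant libraries, against 533, 679 and 467 fragments in control libraries. Its level was 63.0, 52.7 and 46.8 FPKM in resistant libraries, against 111, 140.1 and 106 FPKM in control libraries. The highest resistant library was well below the lowest control library. Means were 54.2 ± 8.18 FPKM in resistant and 119 ± 18.4 FPKM in control cells (SD, n = 3 each); the log2 fold change was -1.16 ± 0.14, with -1.21 without control replicate 1 and -1.27 to -1.03 with each library left out in turn. It ranked 133 from the bottom of all tested genes.

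RNU4ATAC, the partner of U6atac (chr2:122288456-122288585, plus strand), was lower on average but not without overlap. It had 36.3, 22.9 and 19.6 FPKM in resistant libraries, against 53.5, 53.2 and 30.8 FPKM in control libraries. Resistant replicate 1 exceeded control replicate 3. Means were 26.3 ± 8.85 FPKM in resistant and 45.8 ± 13.0 FPKM in control cells (SD, n = 3 each), and the log2 fold change was -0.84 ± 0.27, and -0.72 without control replicate 1, the highest control. These values rest on 98 to 159 fragments in resistant and 141 to 268 fragments in control libraries. The gene lies inside the span of CLASP1, a microtubule-binding protein, on the other strand. Whether it meets a CLASP1 exon was not looked at, so reads of the pair may not be told apart there. CLASP1 itself was higher in resistant cells, at 11.6 to 12.3 FPKM against 10.1 to 10.4 FPKM in control cells. The ratio of U6atac to U4atac was 1.73, 2.30 and 2.39 in resistant libraries, against 2.08, 2.63 and 3.44 in control libraries, with overlap.

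The pair that recognises the splice site and branch site differed less. RNU11 (chr1:28975112-28975246, plus strand) had 34.3, 23.3 and 26.2 FPKM in resistant libraries, against 46.3, 43.6 and 30.7 FPKM in control libraries. The groups met where resistant replicate 1 passed control replicate 3, and the log2 fold change was -0.56 ± 0.19, and -0.44 without control replicate 1, the highest control. RNU12 (chr22:43011251-43011399, plus strand) had 43.1, 34.4 and 26.4 FPKM in resistant libraries, against 47.2, 55.4 and 34.5 FPKM in control libraries. Again resistant replicate 1 lay above control replicate 3 (log2 fold change -0.43 ± 0.21), and the value was -0.26 without resistant replicate 3, -0.27 without control replicate 2 and -0.41 without control replicate 1.

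Together the 4 snRNAs had 796, 748 and 610 fragments in resistant libraries, against 1310, 1495 and 935 in control libraries. No resistant library reached the lowest control library in that sum, nor in summed FPKM (119 to 177 FPKM in resistant, 202 to 292 FPKM in control libraries). RNU6ATAC gave the most of these fragments in every library, while RNU4ATAC, RNU11 and RNU12 each overlapped between the groups. The sum therefore does not show a fall shared by all 4. Within the groups the libraries kept a common order: resistant replicate 1 was the highest resistant library for 5 of the 5 small RNAs, resistant replicate 3 the lowest for 4, and control replicate 3 the lowest control library for 4. Per length, RNU6ATAC was the most abundant of the 4 snRNAs in both groups, above the rest in every library of the group. RNU12, RNU11 and RNU4ATAC followed with overlapping libraries in resistant cells, and RNU4ATAC, RNU12 and RNU11 with overlapping libraries in control cells.

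RMRP was the most abundant member by a wide margin. The gene (chr9:35657748-35658015, minus strand, 268 bases) had 419119, 474798 and 406995 fragments in resistant libraries, against 524515, 579968 and 511127 fragments in control libraries. That was 1.18%, 1.07% and 1.00% of all gene fragments in resistant libraries, against 1.29%, 1.41% and 1.37% in control libraries. Its level was 46447, 42267 and 39496 FPKM in resistant libraries, against 50947, 55824 and 54187 FPKM in control libraries. All resistant libraries were below all control libraries; the means were 42736 ± 3499 FPKM in resistant and 53653 ± 2482 FPKM in control cells (SD, n = 3 each), and the log2 fold change was -0.35 ± 0.06, and -0.38 without control replicate 1, the lowest control. Its close relative RPPH1, the RNA of RNase P, which has the same kind of promoter and shares most protein partners with RMRP, had 35390, 35097 and 40107 FPKM in resistant libraries, against 32310, 36872 and 37026 FPKM in control libraries. RPPH1 overlapped between the groups (log2 fold change 0.04 ± 0.06, edgeR adjusted p = 0.644, and -0.02 without control replicate 1), and the ratio of RMRP to RPPH1 fragments was 1.03, 0.946 and 0.774 in resistant libraries, against 1.24, 1.19 and 1.15 in control libraries. CCDC107, which starts 271 bases from RMRP on the other strand, went the other way, at 18.9 to 20.8 FPKM in resistant and 13.5 to 14.9 FPKM in control libraries (log2 fold change 0.46 ± 0.07).

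**Figure D2:**
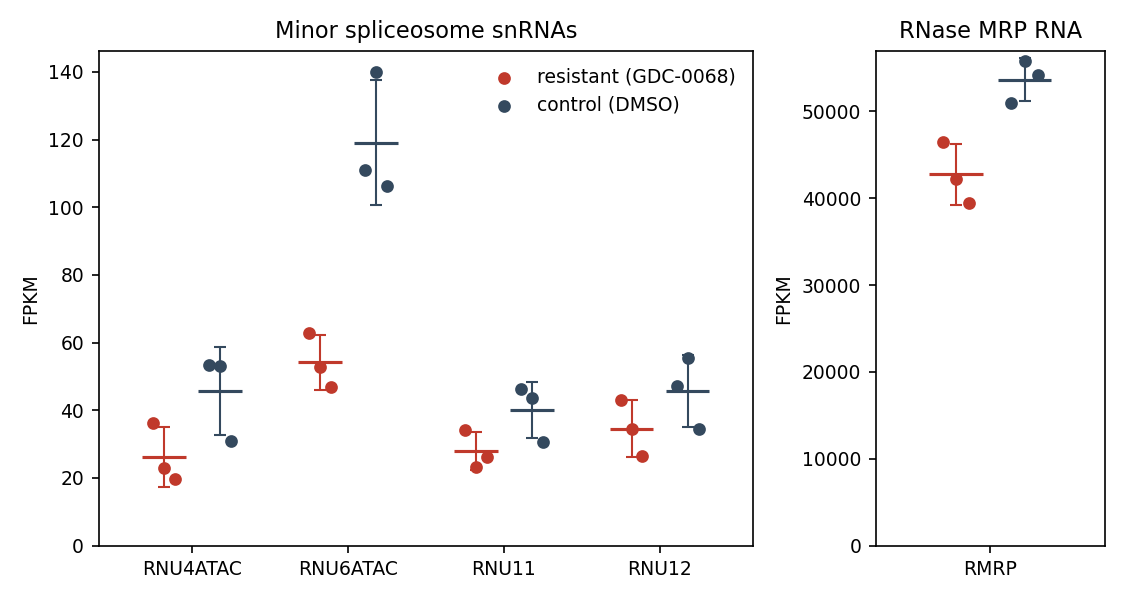
FPKM of the 4 minor spliceosome snRNAs (left panel) and of RMRP (right panel), on linear axes from 0, with resistant libraries left of control libraries; points are libraries, and the bar marks the mean with its SD. RNU6ATAC (46.8 to 63.0 FPKM in resistant, 106 to 140.1 FPKM in control libraries) and RMRP do not overlap between the groups, and RNU4ATAC, RNU11 and RNU12 do.

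The sources used here do not say whether RNA was selected by its poly(A) tail, which these 5 small RNAs normally lack, or by removal of ribosomal RNA; the part of that step in their counts was not tested. Other short genes were set beside them. Of 477 other tested genes with a model of at most 300 bases, 36 were higher and 29 lower in resistant cells at a threshold of 0.05 for the adjusted p (edgeR quasi-likelihood test, Benjamini-Hochberg), and their log2 fold changes had a median of -0.003. Over all 13070 tested genes the median was -0.01, and 24.5% were higher and 25.7% lower at that threshold (50.2% in all). Of 38 other well known short noncoding RNAs, 24 had no row under the symbols searched, 1 had repeated rows and 5 of the remaining 13 passed the level filter. Among these 5, edgeR and DESeq2 called 0 in either direction, 1 was lower at an unadjusted p under 0.05, and the median log2 fold change was -0.14. Without control replicate 1, edgeR called 2 of them lower, and without resistant replicate 1 it called 1 higher.

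**Figure D3:**
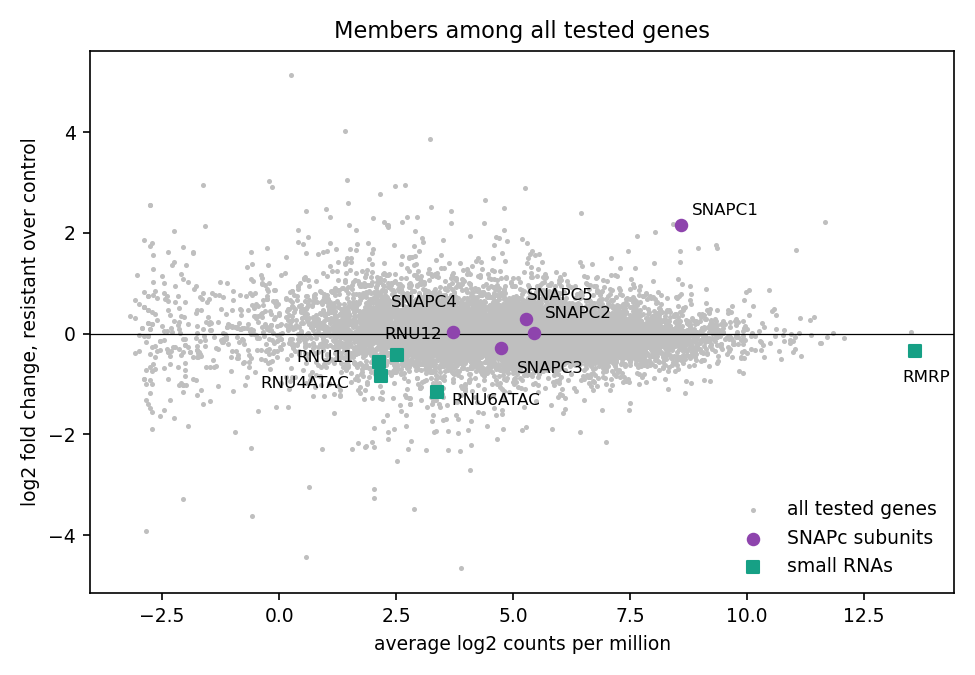
Log2 fold change of resistant over control against the average log2 CPM (counts scaled by library total), for all 13070 tested genes (grey), the 5 SNAPc subunits (circles) and the 5 small RNAs (squares). SNAPC1 stands at 2.16 among abundant genes, all 5 small RNAs lie below 0, and RMRP lies at the far right.

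The genes around these RNAs were taken in lists by their role, from transcription to assembly. Counts below are of genes called by edgeR at an adjusted p under 0.05 over all tested genes. They are to be read beside the share over all tested genes, of which 24.5% were higher and 25.7% lower. Whether any list differs from that share was not tested. Of 18 subunits of RNA polymerase III, 1 rose, 6 fell and 11 were not called (median log2 fold change -0.14). POLR2L, a subunit common to the nuclear polymerases, fell to 260.1 ± 14.4 FPKM in resistant cells, against 368 ± 16.3 FPKM in control cells (log2 fold change -0.52 ± 0.05, adjusted p = 8.3e-05). POLR1D, shared with RNA polymerase I, fell by 0.50 ± 0.05 on the log2 scale, POLR3B, a catalytic subunit, fell by 0.43 ± 0.05, and POLR3GL, a variant subunit, rose by 0.43 ± 0.08. Without control replicate 1 the counts were 2 higher and 10 lower.

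Of the 12 genes of RNA polymerase III general factors and the repressor MAF1, 1 rose, 4 fell and 7 were not called (median -0.02). The factors that work with SNAPc at snRNA promoters of RNA polymerase III, named here for that role after their values were seen, were not called, BDP1 narrowly: BRF2 had a log2 fold change of 0.13 ± 0.07, TBP of 0.06 ± 0.07 and BDP1 of 0.24 ± 0.09 (edgeR adjusted p = 0.161, 0.49 and 0.052). Without control replicate 1 these values were 0.08, 0.09 and 0.36, and BDP1 was then called higher, as it was by DESeq2 (0.24) and limma (0.24 to 0.26). The 4 that fell were GTF3A, known as TFIIIA (log2 fold change -0.44 ± 0.04), and the TFIIIC subunits GTF3C6 (-0.41 ± 0.08), GTF3C5 (-0.24 ± 0.05) and GTF3C4 (-0.17 ± 0.05). The 1 that rose was not taken by the rule for naming genes. Whether factors of SNAPc-type promoters differ from the others was not tested. GTF3C4 was not called without any 1 resistant library, at -0.17 to -0.15. The count of higher genes was 0 without resistant replicate 2 or 3 and 2 without control replicate 1. Of the 4 activators that bind the distal sequence element of snRNA promoters, ZNF143 fell (-0.34 ± 0.06, adjusted p = 0.00187), its relative ZNF76 rose (0.33 ± 0.08, adjusted p = 0.0112), and 2 were not called. Without control replicate 1, 3 were higher.

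Integrator cleaves the 3′ ends of snRNAs made by RNA polymerase II. Of its 15 subunits 3 rose, 6 fell and 6 were not called (median -0.002). INTS13 fell to 34.3 ± 1.04 FPKM in resistant cells, against 62.7 ± 3.91 FPKM in control cells (SD, n = 3 each), the largest fall in this list (log2 fold change -0.89 ± 0.06, edgeR adjusted p = 8.06e-06). INTS8 fell by 0.59 ± 0.07 on the log2 scale, while INTS2 rose by 0.46 ± 0.06 and INTS1 by 0.45 ± 0.08 (0.36 without control replicate 1). Leaving out any 1 resistant library left 3 lower.

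Of the 8 genes of the little elongation complex, which promotes transcription of snRNA genes, 4 fell and 4 were not called (median -0.15). By edgeR and DESeq2 0 rose, with 1 called higher by limma, 1 higher at an unadjusted p under 0.05 and 2 called higher without control replicate 1. The largest fall was that of EAF2, a partner of the ELL elongation factors, which had 0.983 ± 0.125 FPKM in resistant and 2.31 ± 0.205 FPKM in control cells (SD, n = 3 each); it fell by 1.24 ± 0.16 on the log2 scale (edgeR adjusted p = 0.000306), or by 0.74 by limma on log2(FPKM + 1). EAF2 lies under the level of 5 FPKM used for naming genes and was named after its values were seen. ELL3, an elongation factor, fell by 0.43 ± 0.06, and EAF1, a relative of EAF2, by 0.20 ± 0.05. Of 9 proteins of snRNA export and of the 7SK particle, 4 fell, 0 rose (0 also at an unadjusted p under 0.05 and by DESeq2, and 1 without control replicate 1) and 5 were not called (median -0.14). The cap-binding protein NCBP1 fell by 0.50 ± 0.05, the export receptor XPO1 by 0.47 ± 0.12 (-0.31 without control replicate 1), the P-TEFb inhibitor HEXIM1 by 0.40 ± 0.05 and SRRT by 0.18 ± 0.05. SRRT was not called without resistant replicate 2 or 3 or control replicate 2 or 3, at -0.17 to -0.14.

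The proteins that pack these RNAs were taken in 4 lists, given here and in the next paragraphs. Of 16 proteins known for U11/U12 or other minor spliceosome particles, 3 rose, 3 fell and 10 were not called (median 0.01), and 5 were higher without control replicate 1. DHX15, an RNA helicase, fell by 0.46 ± 0.04, TXNL4B by 0.44 ± 0.06 and the U11/U12 protein SNRNP25 by 0.39 ± 0.06, while CCDC84 rose by 0.37 ± 0.09. Of 19 proteins that U4atac-U6atac shares with the major spliceosome, 2 rose, 6 fell and 11 were not called (median 0.01), and 4 were higher without control replicate 1. PRPF4 fell by 0.45 ± 0.04, LSM3, of the ring that binds the U6 class, by 0.37 ± 0.12 (-0.20 without control replicate 1, and not called, at -0.41 to -0.32, without any 1 resistant library), TXNL4A by 0.34 ± 0.04 and the GTPase EFTUD2 by 0.30 ± 0.05.

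Of 20 genes of the Sm ring and the SMN machinery that loads it onto U11, U12 and U4atac, 12 fell, 8 were not called and 0 rose (0 also at an unadjusted p under 0.05 and by DESeq2, and 1 without control replicate 3), with a median of -0.21. The count of lower genes depended on single libraries: it was 6, 5 and 4 without resistant replicate 1, 2 and 3, and 6 by limma on log2 FPKM. GEMIN2, which holds the Sm proteins, fell by 0.49 ± 0.08, GEMIN5, which recognises the RNA, by 0.44 ± 0.04, and STRAP by 0.43 ± 0.06. The ring protein SNRPE had 10.4 ± 1.22 FPKM in resistant and 20.4 ± 10.7 FPKM in control cells; control replicate 1 held the high value, and the log2 fold change of -1.0 ± 0.31 became -0.47 without it, and was not called, at -1.10 to -0.93, without any 1 resistant library. SMN1 and SMN2, near-identical copies, carry the same fragment count in every library and were not called.

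Of 11 proteins of RNase MRP or RNase P, 8 fell, 3 were not called and 0 rose (0 also at an unadjusted p under 0.05 and by DESeq2), with a median of -0.33. RPP40 fell to 16 ± 1.55 FPKM in resistant cells, against 23.4 ± 2.17 FPKM in control cells (SD, n = 3 each; log2 fold change -0.57 ± 0.10, edgeR adjusted p = 0.0015). RPP38 fell by 0.51 ± 0.06, POP7 by 0.46 ± 0.07 and RPP14 by 0.43 ± 0.05. The list also covers RNase P, whose RNA, RPPH1, overlapped between the groups.

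**Figure D4:**
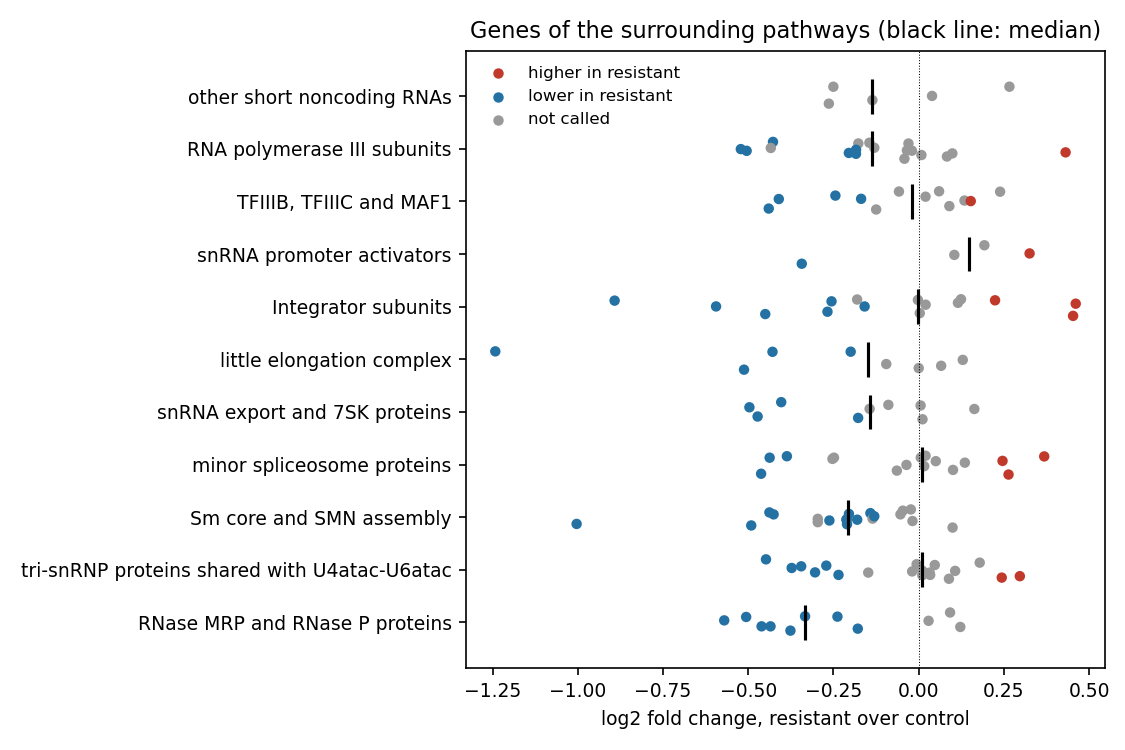
Log2 fold change of resistant over control for each tested gene of the 11 lists of surrounding pathways; a point is a gene, coloured by the edgeR call, and the black line is the list's median. The median is lowest for the RNase MRP and RNase P proteins (-0.33) and highest for the snRNA promoter activators (0.15), and in no list are all genes on one side of 0.

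SNAPC1 lies on chromosome 14 next to HIF1A, the oxygen-regulated transcription factor, and its neighbours did not share its difference as a block. Of the 5 tested genes on either side, 4 rose and 6 fell, with a median log2 fold change of -0.37. Over all tested genes 24.5% rose and 25.7% fell. The 5 before SNAPC1 lay within 211376 bases of it. After it, SYT16 lay 199394 bases away and the rest, from PPP2R5E to SYNE2, 1577463 to 2056536 bases away. HIF1A, which ends 14097 bases before SNAPC1 starts, fell to 73.0, 74.6 and 76.9 FPKM in resistant libraries, against 114, 103 and 98.8 FPKM in control libraries (log2 fold change -0.51 ± 0.06, edgeR adjusted p = 0.00019, and -0.44 without control replicate 1). The noncoding LOC105370526, which overlaps the HIF1A model on the other strand and ends 11259 bases before SNAPC1, was the neighbour that resembled it: 42.1, 41.1 and 44.2 FPKM in resistant libraries, against 8.74, 6.39 and 8.0 FPKM in control libraries. It rose by 2.44 ± 0.11 on the log2 scale (edgeR adjusted p = 1.43e-06). As the strand setting is not given, reads of HIF1A and of genes on its other strand may not be told apart where they overlap. HIF1A-AS2, described below, lies inside the span of LOC105370526 on the same strand. Reads of those genes may therefore be shared under any strand setting. Overlap here is of whole gene spans, and whether exons meet was not looked at.

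The antisense RNA HIF1A-AS2, next before SNAPC1 in order of start, had 9.54, 9.31 and 9.93 FPKM in resistant libraries, against 36.7, 12.8 and 13.2 FPKM in control libraries, so that 1 control library set most of the difference (log2 fold change -1.15 ± 0.37, and -0.45 without control replicate 1). Without any 1 resistant library, HIF1A-AS2 (-1.17 to -1.12), SGPP1 (-0.58 to -0.52) and HIF1A-AS1 (-0.23 to -0.19) were not called. Of the rest, HIF1A-AS1 (-0.22 ± 0.08), PPP2R5E (-0.59 ± 0.09), WDR89 (-0.63 ± 0.09) and SGPP1 (-0.55 ± 0.19, and -0.26 without control replicate 1) fell, while PRKCH (0.17 ± 0.05), SYT16 (0.19 ± 0.06) and SYNE2 (0.70 ± 0.05) rose. PRKCH (0.16 and 0.18) and SYT16 (0.17 and 0.19) were not called without resistant replicate 2 or 3, nor SYT16 (0.15) and HIF1A-AS1 (-0.18) without control replicate 2. The count of lower neighbours was 3 without any 1 resistant library, and that of higher neighbours was 2 without resistant replicate 2 or 3. Around RNU6ATAC, 7 of the 10 nearest tested genes fell and 3 were not called, with a median of -0.31. Around all 10 members together, 21 of 100 rose, 26 fell and 53 were not called, near the 24.5% and 25.7% of all tested genes, and 17 and 16 fell without resistant replicates 1 and 2.

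**Figure D5:**
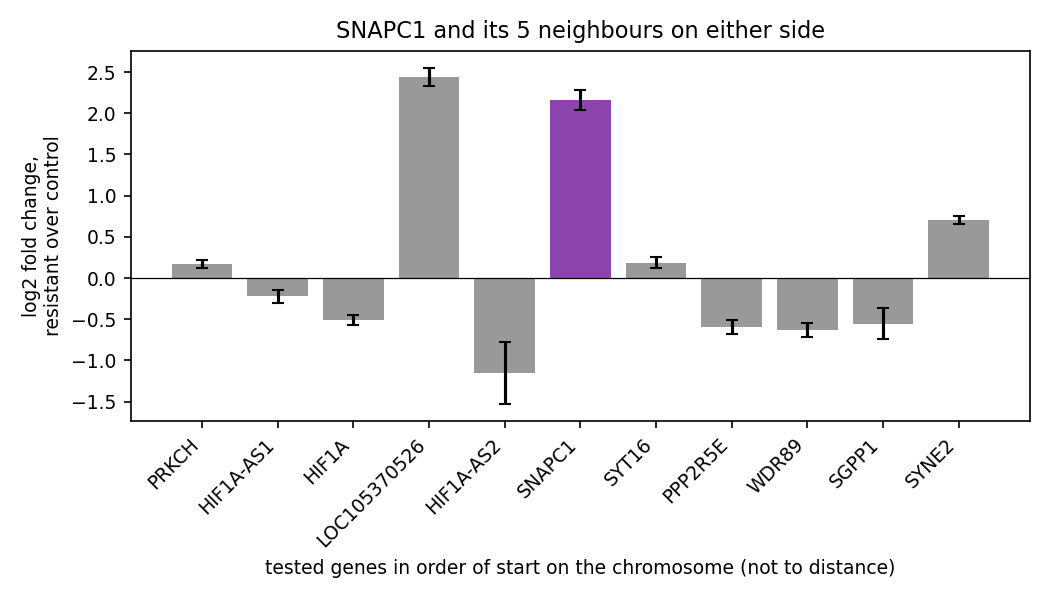
Log2 fold change of resistant over control, with its SE, for SNAPC1 and the 5 tested genes on either side in order of start position, not to distance. SNAPC1 (2.16) and LOC105370526 (2.44) stand high, with HIF1A (-0.51) and HIF1A-AS2 (-1.15) beside them below 0.

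The tested genes whose pattern over the 6 libraries was most like that of SNAPC1, by Pearson's r of log2 CPM and with no test, included INHBA (r = 0.9998), CD44 (0.9994), KLF6 (0.9993) and HN1L (0.9990). With 2 groups of 3 libraries, such values mostly state that a gene is higher in the same group. Chosen for this pattern, they get no test, and each differed by less than SNAPC1: INHBA, a subunit of the growth factor activin A, averaged 87.1 ± 1.68 FPKM in resistant and 40.6 ± 3.18 FPKM in control cells (SD, n = 3 each), and its log2 fold change was 1.08 ± 0.06. CD44, a cell surface receptor for hyaluronan, had a log2 fold change of 0.68 ± 0.04, KLF6, a zinc-finger factor, 0.83 ± 0.06, and HN1L 0.35 ± 0.04. Among the members, r with SNAPC1 was 0.932 for SNAPC5, -0.966 for SNAPC3, -0.949 for RNU6ATAC and -0.919 for RMRP. For the members whose groups overlapped it was nearer 0: -0.677 for RNU4ATAC, -0.662 for RNU11, -0.550 for RNU12, 0.147 for SNAPC4 and -0.025 for SNAPC2.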

How the data were processed

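The submitters' processing notes name TopHat2 2.0.6 and the genome build hg19. The tool for counting, the gene models, strandedness and the way RNA was selected for the libraries were not given in the sources used here. Per the file headers, the deposited tables hold a fragment count per gene, the authors' FPKM, and a score (FPM) used only to recover the library totals. Starts are counted from 1. Of 27734 rows, 849 under 396 repeated symbols were dropped, and the 13070 genes averaging at least 1 FPKM were tested on the counts as deposited with edgeR 4.0.16 (quasi-likelihood, TMM, group the only term, Benjamini-Hochberg, threshold 0.05; biological coefficient of variation 7.17%). Errors are the SD of 3 libraries for FPKM and the SE of the fit for log2 fold changes. Members, gene lists and their rules were chosen with earlier results of these data known.

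In each list, up to 4 called genes with the largest change and at least 5 FPKM in one group were named, or the most abundant gene where 0 were called; all neighbours of SNAPC1 and the 5 genes most like it were named, except that some genes these rules take are not reported here. Alternatives were DESeq2 1.42.0, limma 3.58.1 on log2(FPKM + 0.5), the same with pseudocounts of 1 and 0.1, RLE factors, no filter, a filter of 5 FPKM, a replicate block and each library left out. Same-numbered libraries did not pair (deviations correlated at -0.01, 0.05 and -0.09). On simulated data for this comparison (13070 genes), edgeR recovered 29 of 50 genes changed 1.25-fold and 49 of 50 changed 1.5-fold, and called 8 of 12870 unchanged genes. The simulation gave every gene the same spread, drew changed genes from those averaging at least 50 fragments, and held no library effect. It checks that the fit runs as intended, and its rates are not error rates of the real data. GENCODE 29 (GRCh38) gave sequences and GC content and no coordinates.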

Additional observations from a re-analysis of the deposited data

How the results depend on the processing

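The log2 fold changes of SNAPC1, SNAPC3, SNAPC5 and the 5 small RNAs kept their sign in all 14 alternatives, SNAPC1 at 2.08 to 2.33 and SNAPC3 at -0.32 to -0.25. Those of SNAPC2 (-0.08 to 0.09) and SNAPC4 (-0.01 to 0.07) lay on both sides of 0. Within that range, the value of SNAPC3 moved by more than its spread to -0.26 and -0.25 by limma on log2(FPKM + 0.5) and log2(FPKM + 1). It also moved to -0.26 with a filter of 5 FPKM, which removed SNAPC4. Same-numbered libraries share only a number; with the replicate block, 3059 genes were higher and 3222 lower, against 3200 and 3360 without it, and 2 general factors of RNA polymerase III were higher in place of 1. That count was also 2 by DESeq2, limma, RLE factors and the 5 FPKM filter. By limma, with RLE factors and with that filter 1 gene of the little elongation complex was higher, and the filter left 2 of it lower. Lower genes of the Sm and SMN list numbered 6 by limma and 7 with the filter, which also gave 2 higher activators and 1 higher RNase protein. Without a filter, 1 other short noncoding RNA was lower and 2 neighbours of SNAPC1 were higher; by DESeq2 3 neighbours were lower. With each library left out in turn, counts ranged as follows: 2 to 4 higher and 3 to 6 lower neighbours of SNAPC1, 16 to 35 lower neighbours of all members, 0 to 1 higher and 0 to 2 lower other short noncoding RNAs, 1 to 2 higher and 4 to 10 lower RNA polymerase III subunits, 0 to 2 higher general factors, 1 to 3 higher activators, 3 to 7 lower Integrator subunits, 0 to 2 higher genes of the little elongation complex, 0 to 1 higher export and 7SK proteins, 3 to 5 higher minor spliceosome proteins, 0 to 1 higher and 4 to 14 lower Sm and SMN genes, and 2 to 4 higher shared tri-snRNP proteins. The cause of these moves was not tested, beyond the smaller number of libraries or genes. Of 55 named genes called, 46 were called in every alternative that tested them, and calls were lost in some for GTF3C4, HIF1A-AS1, HIF1A-AS2, LSM3, PRKCH, SGPP1, SNRPE, SRRT and SYT16; BDP1 was called in 9 of the 14 alternatives, and 0 reversed. RNU4ATAC, RNU11 and RNU12, at 98 to 320 fragments a library, are the members that depth limits most.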

Other observations

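Transcripts of RNU6-2, a symbol that the tables list on 10 rows and that was therefore left out of the tests, summed to 21, 24 and 22 fragments in resistant libraries, against 44, 43 and 30 fragments in control libraries. RN7SL3, an RNA of the signal recognition particle, varied among the resistant libraries: 6690, 12424 and 11083 FPKM in resistant replicates 1 to 3, against 8678, 7859 and 8229 FPKM in control replicates 1 to 3, resistant replicate 1 being the lowest of all 6.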
